A study of Mus musculus with 4 samples.

Results

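The imprinted Dlk1 to Dio3 cluster lies on mouse chromosome 12 and was described here through 6 of its genes, picked by name out of 45706 in a table of read counts. The maternally expressed members were the noncoding RNAs Meg3, Rian and Mirg, and the paternally expressed members were the protein-coding genes Dlk1, Rtl1 and Dio3. The members were chosen with their values in these libraries in view, so their levels and their differences between the groups are given as a description, with no test. All 6 passed the filter on low counts, which left 18005 genes.

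Imprinted genes are transcribed mainly from the allele inherited from 1 parent, and which allele is used is set in the germ line by DNA methylation. In this cluster a differentially methylated region between Dlk1 and Meg3 is unmethylated on the maternal chromosome, where the noncoding RNAs and many microRNAs and snoRNAs are made along 1 strand, and methylated on the paternal chromosome, where the protein-coding genes are used. Mouse pluripotent cell lines are known to differ in whether the maternal RNAs are on, and loss of Meg3 expression has been tied to poor developmental capacity of induced pluripotent lines.

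The samples were mouse embryonic stem cells of the V6.5 line after 24 h of doxycycline (2 libraries, genotype given as KLF KO) and before it (0 h, 2 libraries, given as KLF WT). All cells belonged to lines infected with a lentiviral vector that carries doxycycline-inducible Cas9 and guide RNAs, per the labels. The labels describe guides for KLF4 by itself and guides for KLF2, KLF4 and KLF5 in 1 vector; they do not say which a library carried. Clonal lines were picked, and the labels do not tie a replicate letter (A or B) to a clone. The 24 h titles name a KLF4 knockout and the 0 h titles wild-type cells, although both carry the abbreviation TKO. All cells grew on irradiated feeder fibroblasts in medium with 15% serum, 1000 U/ml LIF, inhibitors of MEK (1 µM) and of GSK3 (3 µM), the condition labelled 2i. The drug, cutting of DNA by Cas9, the loss of KLF factors and 24 h of time separate the groups together and cannot be told apart.

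Libraries held 46031578 to 52412844 counts, so a count of 0 allows at most 0.0572 to 0.0652 CPM (read counts scaled to library size). This limit is 3 reads over the total count, without the scaling factor used for the other CPM values, and covers counting error alone. The 9 stem cell markers summed to 3935 and 3992 CPM in the 24 h libraries (A, then B, as in each pair of values here) and 4498 and 4412 CPM at 0 h. Transcripts of Klf2, Klf4 and Klf5 were at 147 to 244 CPM at 24 h and 124 to 431 CPM at 0 h, and since edits made by Cas9 can leave the amount of RNA as it was, these values do not check the labels. The 0 h replicate A stood apart. Replicates differed by an SD of 0.126 log2 units at 24 h and of 0.319 at 0 h over 11310 genes of at least 5 CPM. The deviation of 0 h replicate A from the mean of the libraries followed gene GC content (r = 0.659 across genes, which share the libraries). The values were -0.283 and -0.387 at 24 h (A and B) and -0.331 in 0 h replicate B. These are not separate evidence, since the mean is that of the same 4 libraries and a trend in any of them draws the others the opposite way.

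Promoter sequences are shown for Meg3, Dio3 and Dlk1, because Meg3 was higher and Dio3 and Dlk1 were lower in the 24 h libraries, and because the guides named in the labels aim at KLF factors, which bind GC-rich elements. Each is the RefSeq window of 300 bases on GRCm38.p6, 250 before and 50 after the RefSeq start site, on the plus strand. RefSeq start sites can differ from the gene spans given below, which come from GENCODE. That of Dio3 lies inside its span, which begins at 110279068. Capitals mark matches on either strand to a KLF consensus (CCNCNCCC), to the cAMP response element (TGACGTCA) and to the TATA box (TATAAA). The windows are chr12:109540746-109541045 for Meg3, chr12:110278980-110279279 for Dio3 and chr12:109452573-109452872 for Dlk1.
Meg3: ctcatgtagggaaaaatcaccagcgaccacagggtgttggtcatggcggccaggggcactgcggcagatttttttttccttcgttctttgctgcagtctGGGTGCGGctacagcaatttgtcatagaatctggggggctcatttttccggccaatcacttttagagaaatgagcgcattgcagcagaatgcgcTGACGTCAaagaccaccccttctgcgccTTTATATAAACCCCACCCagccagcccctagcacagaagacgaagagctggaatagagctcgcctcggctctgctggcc
Dio3: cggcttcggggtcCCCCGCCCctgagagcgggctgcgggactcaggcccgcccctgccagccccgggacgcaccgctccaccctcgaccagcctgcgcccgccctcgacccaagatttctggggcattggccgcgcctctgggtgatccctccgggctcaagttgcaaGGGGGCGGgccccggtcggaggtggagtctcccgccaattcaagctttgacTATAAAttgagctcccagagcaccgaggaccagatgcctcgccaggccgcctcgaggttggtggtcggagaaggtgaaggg
Dlk1: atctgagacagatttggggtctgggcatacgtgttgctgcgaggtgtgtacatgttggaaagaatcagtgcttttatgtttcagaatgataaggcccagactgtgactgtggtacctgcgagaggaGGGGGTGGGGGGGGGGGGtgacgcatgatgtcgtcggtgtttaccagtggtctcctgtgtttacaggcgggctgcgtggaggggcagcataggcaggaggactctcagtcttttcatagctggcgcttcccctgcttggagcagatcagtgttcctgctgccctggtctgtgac

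The Meg3 window held TATAAA beginning 25 bases before the start site, a reverse match to it that overlapped it, the palindrome TGACGTCA beginning 57 bases before the start, and 2 KLF matches. The nearer KLF match, CCCCACCC, began 19 bases before the start and directly followed the TATA box. The Dio3 window held TATAAA beginning 31 bases before the RefSeq start, inside the GENCODE span of the gene, and 2 KLF matches. The 7 KLF matches of Dlk1 overlapped one another in a stretch of guanines that a single T interrupts. Of 32851 windows of this length, 49.5% held the KLF consensus, 13.6% TATAAA and 1.79% TGACGTCA. Binding of KLF factors was not measured in these libraries, and whether the matches play a part in the differences between the groups was not tested. The RefSeq windows of Rian and Mirg held none of these letters. The Mirg window, from 109734731, lies inside the GENCODE span of Mirg, which begins at 109729764, so the sequence before that first base was not searched. A second Meg3 window further downstream held 10 KLF matches in separate stretches, each overlapping another match. RefSeq windows were found for 5 of the 6 members.

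Meg3 and Rian were the highest members, and all 3 maternal RNAs were higher at 24 h than at 0 h. Meg3 (ENSMUSG00000021268, plus strand, 109541001 to 109571726 on GRCm38), a nuclear long noncoding RNA that can bind Polycomb proteins, was at 139.8 and 145.7 CPM at 24 h (A and B) and 87.7 and 90.5 CPM at 0 h. The groups did not overlap, and the libraries within each lay close together. Its level averaged 143 ± 4.21 CPM at 24 h and 89.1 ± 1.98 CPM at 0 h (SD, n = 2 each), a fitted log2 fold change of 0.68 (SE 0.10), or 1.60-fold higher. In these bulk libraries a change in the number of cells that make an RNA and a change in the RNA per cell cannot be told apart.

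Rian (ENSMUSG00000097451, 109603940 to 109661716), the host of a large set of C/D box snoRNAs, was at 153 and 155 CPM at 24 h and 73.9 and 100.4 CPM at 0 h. The 24 h libraries were alike, and 0 h replicate A was the lowest of the 4. Its log2 fold change was 0.82 (SE 0.15), or 1.77-fold higher. Rian has the lowest GC content of the members (35.8%), and 0 h replicate A is the library in which GC-poor genes were low. The log2 fold change was 0.62 without that library, also 0.62 once each library's trend on GC content and length was taken out, and 1.06 without 0 h replicate B. The part of GC content alone in the level of Rian was not tested.

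Mirg (ENSMUSG00000097391, 109729764 to 109749460), which spans a large array of microRNA genes, was at 18.4 and 20.4 CPM at 24 h and 12.8 and 11.3 CPM at 0 h. Both 24 h libraries lay above both 0 h libraries. The means were 19.4 ± 1.41 CPM at 24 h and 12.1 ± 1.07 CPM at 0 h (SD, n = 2 each), a log2 fold change of 0.68 (SE 0.14).

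**Figure D1:**
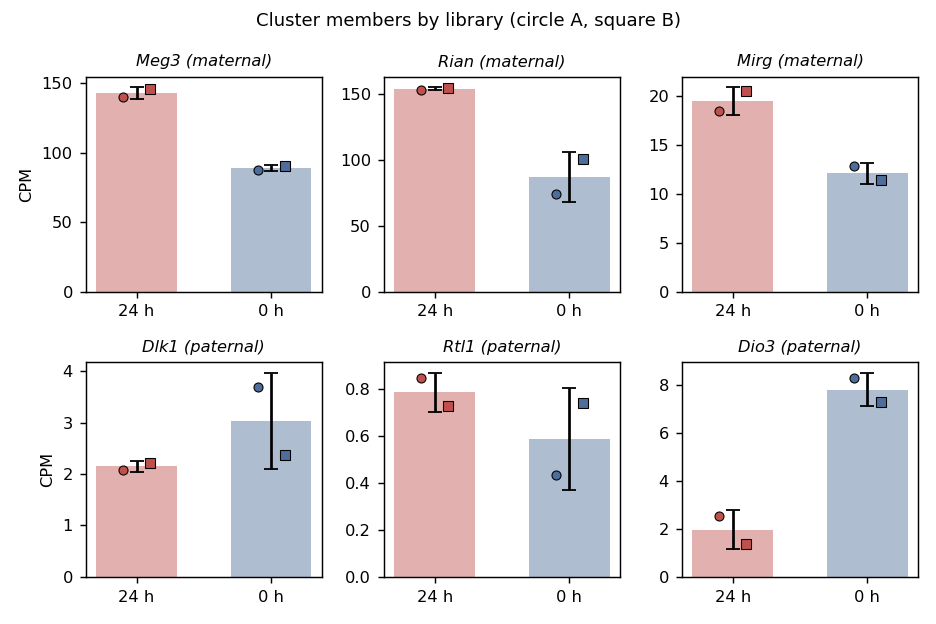
Level of each member in CPM (vertical axes, each from 0) at 24 h and 0 h. Bars are means with SD over 2 libraries and points are the libraries; Meg3, Rian and Mirg are higher at 24 h in both libraries, Dio3 is lower in both, and the groups overlap for Rtl1.

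Of the paternal genes, Dio3 showed the widest difference and was lower at 24 h. Dio3 (ENSMUSG00000075707, plus strand, 110279068 to 110281097) encodes the type 3 iodothyronine deiodinase, a selenoprotein that inactivates thyroid hormone. It was at 2.56 and 1.39 CPM at 24 h (127 and 65 reads) and 8.32 and 7.32 CPM at 0 h (421 and 356 reads). Every 24 h value lay below every 0 h value, although the 24 h libraries differed from each other beyond counting error, with exact Poisson 95% intervals of 105.9 to 151 reads in A and 50.2 to 82.8 reads in B. The log2 fold change was -1.98 (SE 0.28), or 3.95-fold lower at 24 h. It was the 51st lowest of the 18005 tested genes. Leaving out 24 h replicate A gave a log2 fold change of -2.51, and leaving out 24 h replicate B gave -1.62.

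Dlk1 (ENSMUSG00000040856, plus strand, 109452823 to 109463336) encodes a transmembrane protein of the Delta-Notch family that lacks the domain by which Delta ligands bind Notch. It was at 2.07 and 2.22 CPM at 24 h (103 and 104 reads) and 3.70 and 2.37 CPM at 0 h (187 and 115 reads). The groups did not overlap, but 0 h replicate B lay near the 24 h libraries. The log2 fold change was -0.50 (SE 0.26), and it moved to -0.14 without 0 h replicate A but to -0.79 when B was left out in its place.

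Rtl1 (ENSMUSG00000085925, minus strand, 109589193 to 109600330), a gene derived from a retrotransposon and needed in the mouse placenta, was the lowest member. It had 42 and 34 reads at 24 h and 22 and 36 reads at 0 h, or 0.845 and 0.727 CPM at 24 h and 0.435 and 0.741 CPM at 0 h. The groups overlapped, as did the exact Poisson 95% intervals of the highest and the lowest library (30.3 to 56.8 reads in 24 h replicate A and 13.8 to 33.3 reads in 0 h replicate A), and the log2 fold change was 0.42 (SE 0.38).

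Counted by the call rule used for the whole table (edgeR's quasi-likelihood test, adjusted p under 0.05), 3 of 6 members were called higher, 1 lower and 2 not called. Over all 18005 genes 4.15% were called higher (748) and 2.65% lower (477), or 6.8% in either direction, and 2100 higher and 2570 lower with the GC and length trend removed. Since the members were chosen with this contrast in view, nothing is read from their count. The count was 4 when 0 h replicate A was left out and 5 when 0 h replicate B was, which added Dlk1 (lower). It was 1, Dio3, when either 24 h library was left out on its own, although the log2 fold change of Meg3 then stayed at 0.69 (without A) and 0.64 (without B). The median log2 fold change was 0.55 over the members and -0.01 over all genes tested. The members' median pools genes that were higher and lower at 24 h, and nothing is read from it either.

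**Figure D2:**
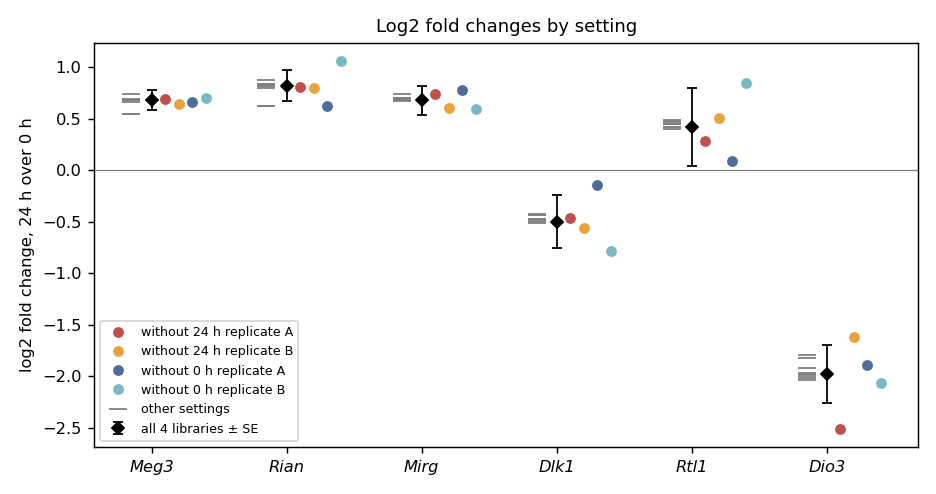
Fitted log2 fold change of each member, 24 h over 0 h (vertical axis). Diamonds are the fit on all 4 libraries with SE, circles leave out 1 library and dashes are the other settings; no value of any member crossed 0, with Dlk1 between -0.79 and -0.14 and Rtl1 between 0.09 and 0.85.

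Levels can be set beside each other across members per kilobase of annotated exon, which depends on the annotation's many isoforms. At 24 h the mean levels were 8.46 CPM per kb for Rian, 7.89 for Meg3, 2.67 for Mirg, 0.972 for Dio3, 0.380 for Dlk1 and 0.124 for Rtl1. At 0 h they were 4.92 CPM per kb for Meg3, 4.78 for Rian, 3.85 for Dio3, 1.66 for Mirg, 0.536 for Dlk1 and 0.0925 for Rtl1. The order thus differed in the place of Dio3, above Mirg at 0 h and below it at 24 h. At 0 h Meg3 lay above Dio3 in every library, while the libraries of Rian overlapped those of both, so that its place was not resolved there. At 24 h the values of Rian and Meg3 did not overlap but were close, at 8.41 and 8.50 CPM per kb for Rian and 7.73 and 8.06 for Meg3.

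Ratios of counts within a library do not depend on how libraries are scaled. They do keep a library's trend on GC content, as in 0 h replicate A. Members differ in GC content, from 35.8% in Rian to 57.8% in Dio3, and its part in the ratios was not tested. The 24 h libraries had a ratio of Rian to Meg3 of 1.10 and 1.06, against 0.843 and 1.11 at 0 h, and a ratio of Mirg to Meg3 of 0.132 and 0.140, against 0.147 and 0.125 at 0 h. Both ratios overlapped between the groups. Dlk1 had a ratio to Meg3 of 0.0148 and 0.0152 at 24 h, against 0.0422 and 0.0262 at 0 h, with no overlap. Dio3 had a ratio to Dlk1 of 1.23 and 0.625 at 24 h, against 2.25 and 3.10 at 0 h, so the paternal genes did not keep a fixed ratio to each other. Summed over members, paternal genes gave 1.73% and 1.33% of the cluster's counts at 24 h and 6.67% and 4.91% at 0 h. Dio3 made up 46.7% and 32.0% of the paternal counts at 24 h and 66.8% and 70.2% at 0 h. Counts were per gene and not split by allele, so these percentages do not measure which allele was used. The 3 maternal RNAs summed to 15485 and 15025 counts at 24 h and 8823 and 9828 at 0 h, and the 3 paternal genes to 272 and 203 at 24 h and 630 and 507 at 0 h.

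**Figure D3:**
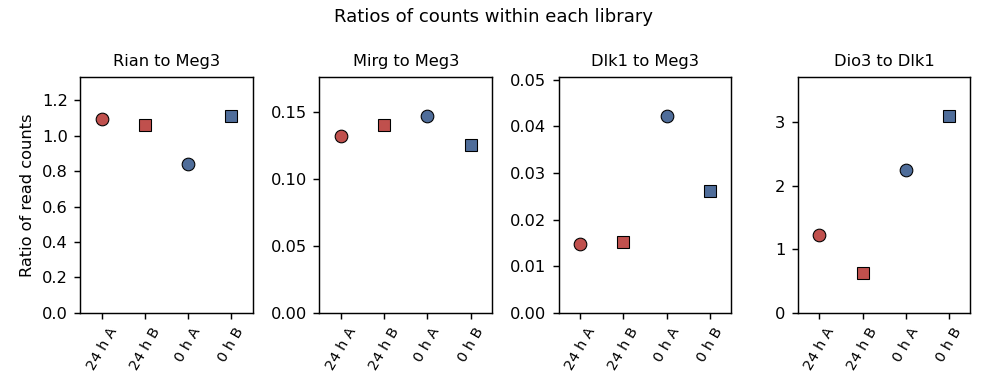
Ratios of read counts between members within each of the 4 libraries (vertical axes, each from 0). Rian to Meg3 and Mirg to Meg3 overlap between 24 h and 0 h, while Dlk1 to Meg3 and Dio3 to Dlk1 are lower in both 24 h libraries.

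As profiles over the 4 libraries (log2 CPM centred on each gene's mean), Meg3 and Mirg lay closest of all member pairs, at a Euclidean distance of 0.171 log2 units. Meg3 and Rian were 0.324 apart and Rian and Mirg 0.476, while Dio3 lay 1.74 from Dlk1 and 2.97 from Rian. The distances did not follow parental origin throughout. The paternal gene Rtl1, which rests on few reads, lay 0.475 from Rian and 0.566 from Meg3, against 1.32 from Dlk1 and 2.58 from Dio3. Among the genes of at least 5 CPM that are not members, the 2 nearest to Meg3 were Mdm2 (0.0294) and Zfp365 (0.0341), and the 2 nearest to Rian were Hmmr (0.0287) and 1110019D14Rik (0.0565). For Mirg they were Pygm (0.0568) and Ccdc125 (0.0621), for Dlk1 Trpv4 (0.0360) and Tfeb (0.0444), and for Dio3 Ntn1 (0.499) and Cdx1 (0.525). With 4 libraries many genes share a profile. The nearest genes lay on other chromosomes.

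Between the first base of Dlk1 and the last base of Dio3, a span of 828 kb, the table held 98 other genes, of which 82 had no count in any library. They were mostly genes for small RNAs, 67 for microRNAs and 23 for snoRNAs, which libraries made from polyadenylated RNA capture poorly. The 67 microRNA genes gathered 22 counts in all and the 23 snoRNA genes 89. All of the snoRNA counts fell on genes inside Rian.

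The sequences of 4 mature microRNAs are shown, since they tie members together: miR-127-3p and miR-136-5p come from the strand opposite Rtl1 and are perfectly matched to its transcript, whose cutting they can direct in mouse, and miR-453 and miR-496a-5p both lie in Mirg and share a seed (bases 2 to 8, in capitals). They are RefSeq sequences, which GRCm38.p6 places on the plus strand at chr12:109592888-109592909 (miR-127-3p), chr12:109595331-109595352 (miR-136-5p), chr12:109735669-109735692 (miR-453) and chr12:109739132-109739152 (miR-496a-5p).
mmu-miR-127-3p: uCGGAUCCgucugagcuuggcu
mmu-miR-136-5p: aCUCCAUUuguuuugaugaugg
mmu-miR-453: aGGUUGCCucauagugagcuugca
mmu-miR-496a-5p: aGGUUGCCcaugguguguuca

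RefSeq placed 58 microRNA hairpins in the interval, 54 of them on the plus strand, the strand of Meg3, Rian and Mirg. Of the 58 hairpins 33 lay inside no member. On the member's own strand 14 lay inside Mirg, 3 inside Rian, 1 inside Meg3 and 1 inside Rtl1, and 6 lay inside Rtl1 on its opposite strand. The 114 mature microRNAs of the 58 hairpins carried 104 distinct seeds, of which 10 were shared by more than 1 gene. Mature microRNAs were not measured in these libraries. How the counting treated reads over both a host and a small RNA gene inside its exons is not given in the sources used here, so the counts of Meg3, Rian, Mirg and Rtl1 leave such reads uncertain. Meg3 also overlaps an antisense gene, Gm26906, which was at 0 in every library.

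Of the interval's other genes 4 had at least 10 counts over the 4 libraries. Gm26945, a long noncoding RNA gene inside the span of Rian, had 29 and 49 counts at 24 h and 24 and 28 at 0 h (log2 fold change 0.63, SE 0.41, edgeR adjusted p = 0.366). The snoRNA gene DQ267102 had 18 and 11 counts at 24 h and 8 and 10 at 0 h (log2 fold change 0.71, SE 0.52, edgeR adjusted p = 0.42). The snoRNA gene Gm25357 had 8 and 10 counts at 24 h and 9 and 2 at 0 h, and Mir3072, whose hairpin overlaps an exon of Mirg, had 5 and 0 at 24 h and 3 and 2 at 0 h. Gm26945 and DQ267102 were the 2 genes with enough counts to test. edgeR called 0 of the 2, with 0 at an unadjusted p under 0.05 and 0 in both DESeq2 and limma voom.

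The neighbours outside the cluster did not pass the test. Within 1 Mb before Dlk1 and after Dio3 the table held 36 genes, of which 25 were tested. edgeR called 0 of the 25, against 6.8% of all genes, with 4 at an unadjusted p under 0.05, against 4642 of all 18005. DESeq2 called 2 (1 higher, 1 lower), against 1994 of the 18005, and limma voom 0, against 1085. Their median log2 fold change was -0.03. The most abundant were the chaperone gene Hsp90aa1, with 1190 and 1218 CPM at 24 h and 1087 and 1345 CPM at 0 h, the dynein heavy chain gene Dync1h1 (log2 fold change -0.01, SE 0.12) and the phosphatase subunit gene Ppp2r5c (0.21, SE 0.10). Begain, the nearest tested gene before Dlk1, was picked after its values were seen. It was at 11.4 and 12.3 CPM at 24 h and 8.02 and 7.96 CPM at 0 h (log2 fold change 0.57, SE 0.14, edgeR adjusted p = 0.0623), and its groups did not overlap. The flank count varied with the library left out, as the count over all genes did. With the GC and length trend removed 4 were called (2 higher, 2 lower), against 4670 of all 18005 genes.

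**Figure D4:**
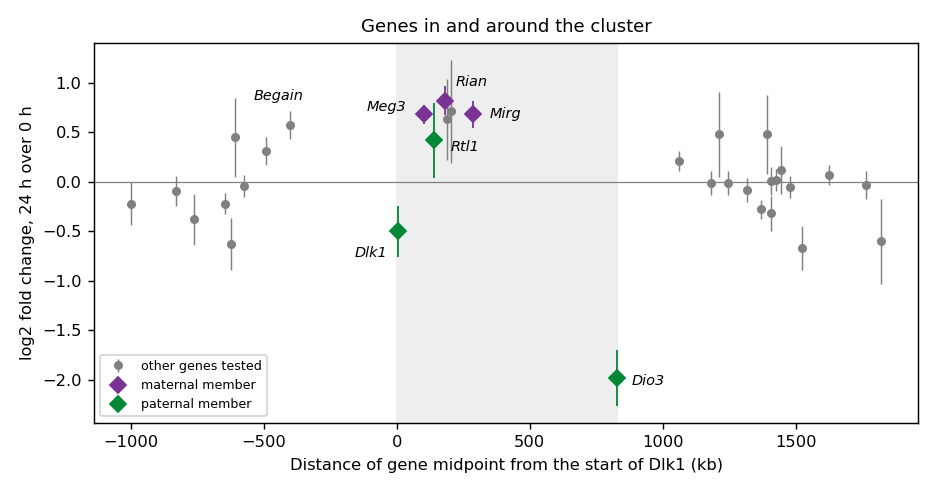
Log2 fold change, 24 h over 0 h, with SE (vertical axis) against the distance of each tested gene's midpoint from the start of Dlk1 in kb (horizontal axis); the grey band runs from Dlk1 to Dio3. Meg3 (0.68), Rian (0.82) and Mirg (0.68) lie above 0 and Dio3 (-1.98) far below it, while the flanking genes have a median of -0.03.

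Of 25 tested genes that keep, write or remove the methylation and chromatin marks of imprints, edgeR called 0 higher, 2 lower and 23 not, a share near the 6.8% called over all genes. Tet2, which oxidises methylated cytosine, fell to 103 and 104.6 CPM at 24 h, against 155 and 169 CPM at 0 h (log2 fold change -0.64, SE 0.10, edgeR adjusted p = 0.0174). Dnmt3l, a cofactor of de novo methylation in the germ line, fell to 35.4 and 38.0 CPM at 24 h, against 53.7 and 49.9 CPM at 0 h (log2 fold change -0.50, SE 0.11, edgeR adjusted p = 0.0472), and overlaps Aire on the other strand, which makes its counts uncertain. Trim28, the corepressor that zinc-finger proteins recruit to imprints, had a log2 fold change of -0.45 (SE 0.15), the maintenance methyltransferase gene Dnmt1 -0.16 (SE 0.12) and its partner Uhrf1 -0.05 (SE 0.10), none of them called. Zfp57, the zinc-finger gene that guards imprints, was picked after its values were seen, with 425 and 437 CPM at 24 h and 499 and 573 CPM at 0 h (log2 fold change -0.31, SE 0.11, edgeR adjusted p = 0.124). The list's median was -0.06. Which library was left out changed the number called, as it did over all genes. With the GC and length trend removed there were 10 (1 higher, 9 lower), against 4670 of all 18005 genes.

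Partners of the proteins that Dlk1 and Dio3 encode were counted as 1 list of Notch and thyroid hormone genes. Of 23 genes 18 were tested, with 1 called higher, 1 lower and 16 not, against 4.15% higher and 2.65% lower over all genes. The median over these 18 was -0.21 (log2 fold change), against -0.01 over all genes. The Notch ligand gene Dll1 rose to 8.09 and 7.84 CPM at 24 h, against 3.42 and 2.43 CPM at 0 h (log2 fold change 1.44, SE 0.21, edgeR adjusted p = 0.0131). The receptor gene Notch4 fell to 1.41 and 1.00 CPM at 24 h, against 6.98 and 4.67 CPM at 0 h (log2 fold change -2.27, SE 0.28, edgeR adjusted p = 0.00959). Notch3 had a log2 fold change of 0.40 (SE 0.17), Rbpj, the DNA-binding factor of the Notch pathway, 0.33 (SE 0.10) and Notch1 -0.31 (SE 0.21), none of them called. The other deiodinase genes were near 0, with 5 counts in all for Dio1 and 1 for Dio2. Calls in this list varied with the library left out, as they did over all genes. Removing the GC and length trend gave 6 (4 higher, 2 lower), against 4670 of all 18005 genes.

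Of 18 genes of microRNA maturation edgeR called 1 higher and 0 lower, a share near the 6.8% called over all genes. Lin28a, which binds the let-7 precursor and blocks its processing, rose to 59.3 and 61.9 CPM at 24 h, against 41.7 and 43.6 CPM at 0 h (log2 fold change 0.51, SE 0.11, edgeR adjusted p = 0.0382). The Argonaute gene Ago2 (0.17, SE 0.09), the microprocessor nuclease gene Drosha (-0.04, SE 0.10) and Ran, which drives export of the precursors (-0.26, SE 0.13), were not called (log2 fold changes). The list's median was 0.05. How many were called varied with the library left out, as it did over all genes. With the GC and length trend removed there were 2 (1 higher, 1 lower), against 4670 of all 18005 genes.

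Of 30 imprinted genes outside the cluster 26 were tested, with 5 called higher, 0 lower and 21 not, against 4.15% called higher and 2.65% lower over all genes. Their median log2 fold change was 0.10, against -0.01 over all genes. These 5 were the growth-restraining noncoding RNA H19 (log2 fold change 2.16, SE 0.21), the paternally expressed neighbours Peg3 (0.86, SE 0.10) and Usp29 (1.18, SE 0.19), the sarcoglycan gene Sgce (0.83, SE 0.15) and the cell cycle inhibitor gene Cdkn1c (0.73, SE 0.15), with adjusted p-values of 0.00507, 0.00802, 0.0188, 0.0275 and 0.0334 in that order in edgeR's test. In each of them both 24 h libraries lay above both 0 h libraries, which adds little, since genes called higher would mostly show it. H19 and Cdkn1c are expressed from the maternal allele, and Peg3, Usp29 and Sgce from the paternal one. The abundant Igf2r (0.08, SE 0.10), Plagl1 (0.28, SE 0.10) and Grb10 (-0.24, SE 0.10) were not called. Of the 26, 10 had an unadjusted p under 0.05 in edgeR, against 4642 of all 18005 genes. DESeq2 called 5 higher and 1 lower, against 1037 higher and 957 lower over the 18005. Here too the number called varied with the library left out, as it did over all genes. With the GC and length trend removed 7 were higher and 4 lower, against 2100 and 2570 of all 18005 genes.

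Feeder fibroblasts can also make Meg3, Rian and Mirg, so fibroblast markers were measured beside them. The 26 markers summed to 3028 and 2974 CPM at 24 h and 3800 and 3087 CPM at 0 h, most of it from Fn1 and Sparc. None of the 26 was at 0 in every library, and Dcn, Lum and S100a4 stayed under 1 CPM in all 4. The collagen gene Col1a1 was at 69.1 and 67.4 CPM at 24 h and 90.1 and 59.6 CPM at 0 h. The markers were thus detected in both groups. Which cells made the marker transcripts, those of Fn1 and Sparc included, was not tested, so the sums do not measure feeder RNA. The part of feeder cells in the members' levels was not tested either. Of 23 markers tested edgeR called 0 higher and 2 lower, a share near the 6.8% called over all genes. These were Pdgfrb (log2 fold change -1.02, SE 0.18) and Ccn2 (-0.53, SE 0.12), which overlaps Gm15270 on the other strand. Fn1 (-0.20, SE 0.13), Sparc (-0.26, SE 0.09) and Col1a1 (-0.13, SE 0.19) were not called, and the list's median was -0.09. Marker calls varied with the library left out, as calls over all genes did. With the GC and length trend removed 2 were higher and 4 lower, against 2100 and 2570 of all 18005 genes.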

How the data were processed

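RNA from 4 samples of V6.5 cells was sequenced from a stranded mRNA kit as single reads of 50 nt, per the labels' protocols. The authors deposited raw read counts per Ensembl gene, 1 column per library. TopHat2, HTSeq, DESeq and the build mm10 are named with no role or version (per the submitters' processing notes). Neither the annotation nor the strand setting of the counting is given in the sources used here.

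GENCODE M21 gave symbols, positions, lengths and GC content (GRCm38, which mm10 also names), with no match for 563 identifiers (0.107% of counts). Levels per kb used the union of a gene's exons. GC content, and the length in the GC and length trend, were those of its longest transcript. Sequences came from RefSeq on GRCm38.p6. Genes were kept with filterByExpr (minimum count 10, minimum total 15), scaled by TMM and compared between 24 h and 0 h in edgeR 4.0.16 by quasi-likelihood F tests (legacy mode, 2-sided, R 4.3.3), with Benjamini-Hochberg adjustment over 18005 genes at 0.05. CPM are the deposited counts over TMM-scaled library sizes. SE is the log2 fold change divided by the root of the F statistic. Profiles used log2 CPM with a prior count of 2. The fit was tested on simulated data. With 2 libraries per group it pools the spread over genes, and p-values measure the spread between these samples, which the series text calls biological replicates.

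The members, lists, tests and alternatives were chosen with earlier results of these data known. Besides the members, genes were named by rule: interval genes of at least 10 counts, and per list up to 5 called genes by p and the 3 most abundant not called. Alternatives were DESeq2 1.42.0 size factors and test, library size scaling, limma 3.58.1 voom, 2 other filters, the replicate letter as a block, removal of each library's GC and length trend (splines with 5 degrees of freedom), and each library left out. Figures were drawn with matplotlib 3.10.9.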

Additional observations from a re-analysis of the deposited data

How the results depend on the processing

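No log2 fold change of a member changed sign in the fits run (14 for each gene with the reported one, 13 for Rtl1, which the filter at 1 CPM removed). The ranges were 0.55 to 0.74 for Meg3, 0.62 to 1.06 for Rian, 0.59 to 0.78 for Mirg, -2.51 to -1.62 for Dio3, -0.79 to -0.14 for Dlk1 and 0.09 to 0.85 for Rtl1. Counts of called genes depended far more on the setting, in ways whose cause was not tested. Over all genes 1225 were called, against 2589 with no filter beyond 1 count, 1994 in DESeq2's test, 4670 with the GC and length trend removed, and with 1 library left out 506 (24 h B), 563 (24 h A), 6040 (0 h A) and 9416 (0 h B). Such a fit takes the spread from the other group alone. Of the members 1 to 5 were called with 1 library left out. The letters A and B could mark shared samples (correlation of their deviations 0.301 over 11310 genes, with 2 pairs), but no label says so. With the replicate block 3253 genes were called, 5984 with the GC and length trend removed as well, while the members called remained 4 in number in both. Of the flanking genes 1 was called with library size scaling, 2 with no filter, 2 in DESeq2, 2 with the block, 4 with the trend removed, 6 with both, and 0 to 11 with 1 library left out. Of the imprint control genes 1 was called with library size scaling and in limma voom, 5 with no filter and with the block, 10 with the trend removed, 12 with both, and 0 to 18 with 1 library left out. Of the Notch and thyroid hormone genes 5 were called with the block, 6 with the trend removed, 8 with both, and 2 to 13 with 1 library left out. Of the microRNA maturation genes the trend removed gave 2, both gave 3, and the left-out libraries 0 to 11. Of the other imprinted genes these were 11, 13 and 3 to 16. Of the feeder markers 1 was called with library size scaling, with the filter at 1 CPM and in limma voom, 6 with the trend removed, 6 with both, and 0 to 11 with 1 library left out. Rtl1 and the small RNA genes rest on few reads, and every comparison rests on 2 libraries per group.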
